A study of Mus musculus with 18 samples.

Results

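The genotype by aristolochic acid I (AAI) interaction at 3 weeks asks which genes of the mouse kidney cortex responded to the toxin differently in 2 genotypes. For each gene, the response of fl/fl kidneys (3 weeks of AAI minus DMSO) was subtracted from the response of kidneys labelled PTKO, on the log2(CPM + 1) scale. The comparison used 12 of the 18 libraries of the series. Of 14604 genes tested, 41 (0.281%) were called in the interaction at a limma adjusted p under 0.05. A further 39 genes were called between the genotypes under DMSO and not in the interaction, and are described apart. They are said to be called at baseline only, which means here that no interaction was called. The genotype difference was also called in the same direction in 25 of the 39 at 3 weeks and in 35 at 6 weeks.

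RNA was total RNA of kidney cortex from C57Bl/6 mice, sequenced in 6 groups of 3 libraries. The control genotype, Klf6fl/fl (fl/fl here), has floxed alleles of Klf6, and Klf6PTKO (labelled PTKO here) is the knockout of Klf6 in the proximal tubule. The 4 groups compared were fl/fl given the DMSO vehicle, PTKO given DMSO, fl/fl given AAI for 3 weeks and PTKO given AAI for 3 weeks. The 2 remaining groups, taken after a remodeling period that followed the same AAI course and called 6 weeks in the titles, had no part in the interaction contrast and entered the fit only through the shared estimate of spread. The promoter that drove the recombination, the age of the mice and the week at which the DMSO kidneys were taken are not given in the sources used here. Whether the 3 libraries within a group stand for separate mice is not stated in the labels, so p-values measure only the spread between libraries, which may be technical.

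The proximal tubule reabsorbs most of what the glomerulus filters, through brush border transporters and peptidases, and burns fatty acids and amino acids to do so. AAI, a plant nitrophenanthrene carboxylic acid, is taken up by this segment through organic anion transporters and is reduced there, in large part by the quinone reductase NQO1, to a species that binds DNA. The injured cells lose their transport and metabolic transcripts, and inflammatory cells, fibroblasts and matrix follow. KLF6 belongs to the Krüppel-like transcription factors, which bind CACCC and GC-rich boxes in promoters through zinc fingers.

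The response to AAI was large in both genotypes, and the interaction was a small part of it. AAI changed 76.1% of genes tested in fl/fl (58.0% rose and 18.2% fell) and 71.1% in the PTKO-labelled libraries (57.2% rose and 13.9% fell), by limma with Benjamini-Hochberg adjustment, as for each adjusted p given here unless another tool is named. The interaction was positive in 24 genes (0.164%), whose level after AAI was higher in the PTKO-labelled libraries than the fl/fl response would give, and negative in 17 (0.116%). In 25 of the 41 genes AAI moved both genotypes in the same direction and by less in the PTKO-labelled libraries. In 9 more genes the AAI change was called in fl/fl alone. The change went in opposite directions in 4 genes, was larger in the PTKO-labelled libraries in 2, and was called in those libraries alone in 1. At an unadjusted p under 0.05 the interaction was positive in 1313 genes (8.99%) and negative in 1398 (9.57%). The median interaction over all genes was -0.02.

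**Figure D1:**
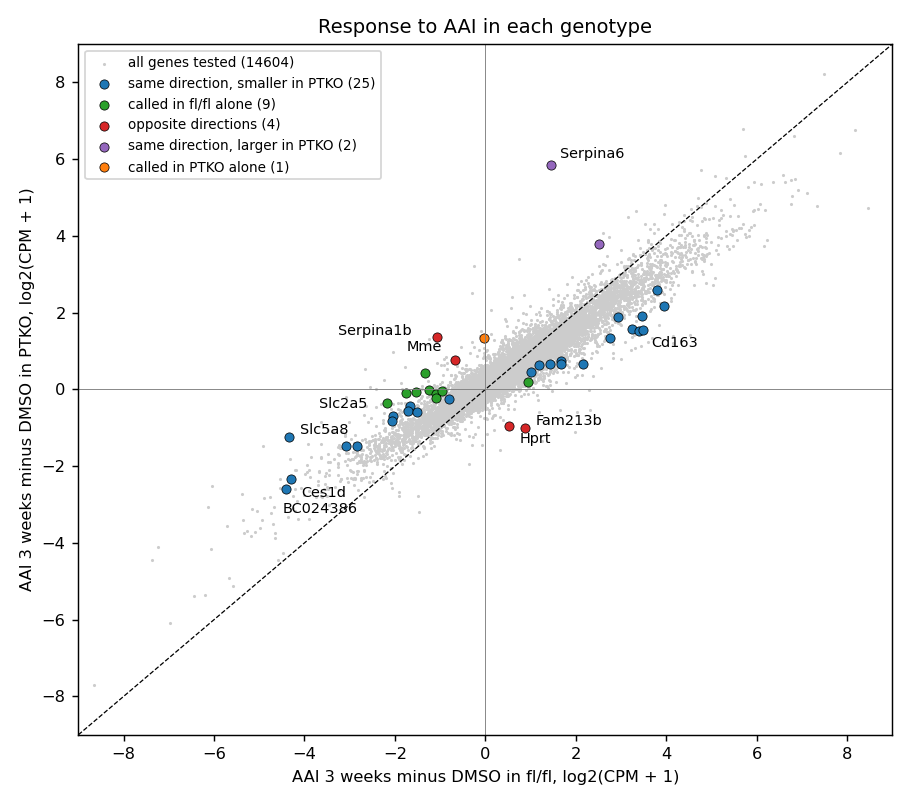
Log2 change with 3 weeks of AAI in fl/fl (horizontal axis) and in PTKO-labelled libraries (vertical axis) for 14604 genes, on the log2(CPM + 1) scale, with the 41 interaction genes coloured by class and equal responses on the dashed line. The blue and green genes lie closer to 0 on the vertical than on the horizontal axis, and Serpina6 stands at 1.46 in fl/fl and 5.84 in the PTKO-labelled libraries.

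The number of genes called changed with the fit. Adjusted p-values lay at 0.04 or above in 31 of the 41 genes. The 3 genes just inside the threshold were Mmp7, Ces1d and Lbp (0.0482 each), and the 5 just outside it were Rps9, Myh14, Sec11c, Bhmt2 and Cstb (0.0506 each). With the 12 libraries fitted alone, limma called 581 genes, all 41 among them, and 514 of the 581 had a smaller response in the PTKO-labelled libraries or a change called in fl/fl alone. On read counts recovered from the CPM values, edgeR called 18 genes (0.123%), 17 of them among the 41, and DESeq2 called 588 of 13183 (4.46%), including 37 of the 41. Among the genes that edgeR did not call were Slc5a8 (adjusted p = 0.0663), Ces1d (0.0607), Hsd3b3 (0.058), Xpnpep2 (0.0501) and Gda (0.0585). Mme, Agxt2 and Serpina1b (0.055 each), Entpd5 (0.0685) and Lbp (0.0627) were not called by edgeR either. DESeq2 called each of these. Leaving out PTKO 3-week replicate 1 raised the count to 427 and leaving out fl/fl 3-week replicate 1 raised it to 332. It fell to 7 and 12 without PTKO 3-week replicates 2 and 3, to 9, 26 and 6 without PTKO DMSO replicates 1, 2 and 3, to 7 without fl/fl 3-week replicate 3, and to 6, 6 and 11 without fl/fl DMSO replicates 1, 2 and 3. The sign of the interaction was the same in all 12 of these fits for each of the 41 genes. Their choice by a large interaction relative to its spread makes this likely, so nothing is read from it. Serpina6, Slc2a5, Reep6, Fcgr2b and Fam213b were called in all 12. By contrast, Slc5a8, Serpina1b and Xpnpep2 were called in 3 of the 12, and Ces1d, Hsd3b3, Agxt2, Entpd5, Gda and Lbp in 2.

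Klf6 is the gene named by the genotype (mm10 chromosome 13, 5861482 to 5870394, plus strand). Its DMSO levels were 39.7, 39.2 and 42.3 CPM in fl/fl, against 40.2, 43.2 and 56.7 CPM in the PTKO-labelled libraries. At 3 weeks they were 308, 274 and 256 CPM in fl/fl, against 310, 280 and 229 CPM in the PTKO-labelled libraries. The genotypes overlapped after AAI, and no library labelled PTKO was low. The Klf6 interaction was -0.23 (95% interval -0.76 to 0.30, adjusted p = 0.665, exact permutation p = 0.31, two-sided). That test exchanges the genotype labels within each treatment and can go down to 0.005. Its p was under 0.05 in 34 of the 41 called genes. They were chosen by the interaction in the same libraries, so nothing is read from this count. The permutation p was 0.05 for Bcl2a1d, 0.055 for Xpnpep2, 0.08 for Mmp7 and Agxt2, 0.095 for Slc2a5, 0.105 for Fam213b and 0.43 for Hprt. Exchanging labels also mixes in a genotype difference shared by both treatments, as in Hprt and Fam213b. All cell types of the cortex contribute Klf6 reads and no value per exon was at hand, so these levels do not check the genotype label.

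Among the 12 libraries, the recovered totals ran from 16516093 to 20787996 reads under DMSO and from 21325952 to 27213219 reads at 3 weeks, and reading depth was thus higher in the AAI groups. In PTKO DMSO replicate 2 the adipocyte hormone gene Adipoq was at 6.78 CPM, against at most 0.254 CPM in the other 11. PTKO DMSO replicate 3 had the lowest of the 12 library weights (0.511, by limma's array weights) and 16.1 CPM of the Y-linked gene Eif2s3y against 38.7 to 53.1 CPM in the other 11. Xist was at or under 0.162 CPM in all 12, and the Y-linked genes were read in all 12. All 22 markers listed for proximal tubule segments S1 and S2 passed the filter on low values.

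The promoters of 4 members are printed as examples of the response types, namely 2 transporter genes that fell in fl/fl, an Fc receptor gene that rose less and a purine salvage gene that moved in opposite directions. They are shown because KLF6 belongs to a family that reads CACCC and GC boxes. Each runs from 250 bases before to 50 bases after a RefSeq start site of the gene, 300 bases in all, on GRCm38.p6 (mm10). The gene coordinates given elsewhere in the text are those of GENCODE. For Slc2a5, Fcgr2b and Hprt the RefSeq start site differs from the GENCODE gene start. The Fcgr2b window thus lies inside the GENCODE gene, and the Hprt window ends before the GENCODE start. Capitals mark CACCC or its reverse complement GGGTG, and GGGCGG or its reverse complement CCGCCC. The Slc5a8 window is chr10:88885742-88886041 on the plus strand, Slc2a5 is chr4:150119094-150119393 on the plus strand, Fcgr2b is chr1:170976022-170976321 on the minus strand and Hprt is chrX:52987828-52988127 on the plus strand.
Slc5a8: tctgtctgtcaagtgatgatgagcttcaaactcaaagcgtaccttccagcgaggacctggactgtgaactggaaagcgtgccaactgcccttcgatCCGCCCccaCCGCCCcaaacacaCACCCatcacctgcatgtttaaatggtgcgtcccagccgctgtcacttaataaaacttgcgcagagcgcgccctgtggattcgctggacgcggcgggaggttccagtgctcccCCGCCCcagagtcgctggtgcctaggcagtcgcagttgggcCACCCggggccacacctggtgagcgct
Slc2a5: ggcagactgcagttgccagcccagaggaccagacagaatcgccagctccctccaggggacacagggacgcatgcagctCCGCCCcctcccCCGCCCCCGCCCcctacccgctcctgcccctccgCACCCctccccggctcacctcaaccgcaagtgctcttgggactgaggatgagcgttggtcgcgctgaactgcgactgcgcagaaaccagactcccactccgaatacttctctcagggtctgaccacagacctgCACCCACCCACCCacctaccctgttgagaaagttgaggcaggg
Fcgr2b: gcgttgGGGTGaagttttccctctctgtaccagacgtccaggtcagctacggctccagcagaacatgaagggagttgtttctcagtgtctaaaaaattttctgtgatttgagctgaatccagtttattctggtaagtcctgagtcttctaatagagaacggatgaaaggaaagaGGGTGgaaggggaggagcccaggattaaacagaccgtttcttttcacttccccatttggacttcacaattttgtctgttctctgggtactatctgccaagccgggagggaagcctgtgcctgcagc
Hprt: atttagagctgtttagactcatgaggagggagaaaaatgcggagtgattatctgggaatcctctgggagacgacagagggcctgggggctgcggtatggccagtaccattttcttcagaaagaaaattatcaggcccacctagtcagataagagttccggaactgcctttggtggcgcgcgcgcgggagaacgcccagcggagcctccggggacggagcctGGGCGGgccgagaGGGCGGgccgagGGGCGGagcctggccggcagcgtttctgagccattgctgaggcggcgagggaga
The Slc5a8 window held 2 CACCC boxes and 3 GC boxes, and the Slc2a5 window 4 and 3, with some of the CACCC matches sharing letters. In the Fcgr2b window there were 2 CACCC boxes and no GC box, and in the Hprt window 3 GC boxes and no CACCC box. The 41 genes matched RefSeq promoters for 32 genes with 43 start sites. Of the 43 windows, 31 (72.1%) held a CACCC box, against 57.5% of all 32851 promoter windows of this length, and 21 (48.8%) held a GC box, against 35.7% of all. These letters occur in promoters at large and do not show a bound site.

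Solute transporters and brush border peptidases were among the genes with a positive interaction. Slc5a8, Slc2a5 and Xpnpep2 fell with AAI in fl/fl, and fell by less or had no call in the PTKO-labelled libraries, while Mme moved in opposite directions. Slc5a8 (chromosome 10, 88885992 to 88929515), the sodium-coupled transporter of lactate and other monocarboxylates, was at 360, 392 and 349 CPM under DMSO in fl/fl and at 334, 348 and 247 CPM in the PTKO-labelled libraries. After AAI it was at 9.14, 37.7 and 14.5 CPM in fl/fl, against 99.7, 184 and 114 CPM in the PTKO-labelled libraries. Every fl/fl library was far below every library labelled PTKO after AAI, while the DMSO levels lay close together. Slc5a8 fell by 4.33 on the log2 scale in fl/fl and by 1.25 in the PTKO-labelled libraries, an interaction of 3.08 ± 0.59 (SE, adjusted p = 0.045).

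Slc2a5 (chromosome 4, 150119283 to 150144169), which encodes the fructose transporter GLUT5, fell in fl/fl and had no call in the PTKO-labelled libraries. Its DMSO values were 119, 105 and 131 CPM in fl/fl, against 147, 175 and 131 CPM in the PTKO-labelled libraries. With AAI they were 27.9, 24 and 24.8 CPM in fl/fl, against 96.8, 136 and 123 CPM in the PTKO-labelled libraries. The 3 fl/fl libraries after AAI stood apart below the other 9. The change was -2.17 in fl/fl and -0.35 in the PTKO-labelled libraries (adjusted p = 0.0804), and the interaction was 1.82 ± 0.24 (SE, adjusted p = 0.00642).

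Xpnpep2 (chromosome X, 48108725 to 48136981), the membrane-bound aminopeptidase P of the brush border, had the same shape. It measured 19.2, 17.9 and 17.8 CPM in fl/fl under DMSO and 5.64, 4.88 and 3.66 CPM after AAI. In the PTKO-labelled libraries it measured 21.7, 23.8 and 11.8 CPM under DMSO and 13.7, 20.9 and 17.6 CPM after AAI. All fl/fl libraries were low after AAI and those labelled PTKO overlapped their own DMSO range, with an interaction of 1.68 ± 0.32 (SE, adjusted p = 0.045). With quantile normalization Xpnpep2 was also called lower after AAI in the PTKO-labelled libraries, at -0.70 (adjusted p = 0.0156).

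Mme (chromosome 3, 63241537 to 63386030) encodes neprilysin, a brush border peptidase that podocytes also carry. Under DMSO it was at 208, 224 and 274 CPM in fl/fl, against 186, 219 and 154 CPM in the PTKO-labelled libraries. At 3 weeks the values were 139, 188 and 120 CPM in fl/fl, against 322, 375 and 262 CPM in the PTKO-labelled libraries. After AAI the groups did not overlap, and each library labelled PTKO was above all 3 of its DMSO group. Mme fell by 0.67 on the log2 scale in fl/fl and rose by 0.78 in the PTKO-labelled libraries (interaction 1.45 ± 0.27, SE, adjusted p = 0.045). With median-of-ratios scaling the rise was 0.33 with an adjusted p = 0.165, and the interaction was 1.46.

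Nqo1 (chromosome 8, 107388225 to 107403206), the quinone reductase that acts on AAI itself and a target of the antioxidant factor NRF2, was called lower after AAI in fl/fl alone. It was at 63.4, 60.9 and 73.5 CPM under DMSO and 22.1, 24.7 and 19.9 CPM after AAI in fl/fl. In the PTKO-labelled libraries the DMSO values were 54.9, 65.3 and 45.9 CPM and those after AAI were 42.5, 58.8 and 57.3 CPM. The fl/fl libraries after AAI lay below all others. The log2 change was -1.53 in fl/fl and -0.07 in the PTKO-labelled libraries, with an interaction of 1.46 ± 0.25 (SE, adjusted p = 0.042). With median-of-ratios scaling Nqo1 also fell in the PTKO-labelled libraries, by 0.51 on the log2 scale (adjusted p = 0.0245). Among the 18 NRF2 targets tested, Nqo1 was the 1 that limma called in the interaction. The 18 went both ways, with 11 positive and 7 negative interactions from -1.80 to 1.46 (median 0.53). At an unadjusted limma p under 0.05 there were 8 positive and 2 negative, and DESeq2 called 5.

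**Figure D2:**
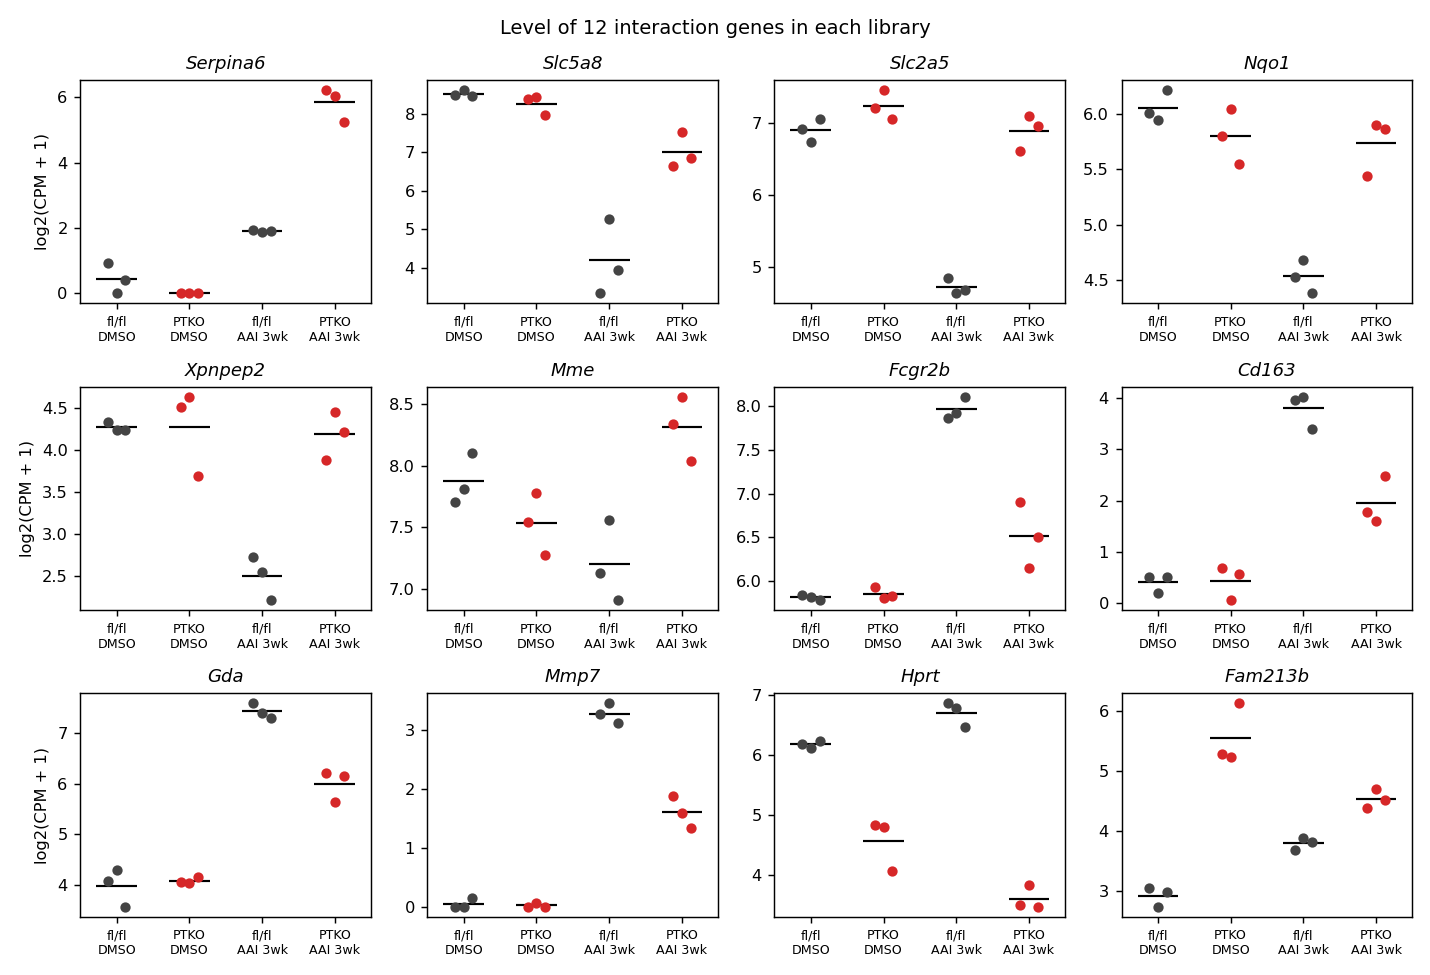
Level of 12 interaction genes in each library, as log2(CPM + 1), for fl/fl (grey) and PTKO-labelled libraries (red) under DMSO and after 3 weeks of AAI, with 3 points and the mean as a line in each group. After AAI the genotypes do not overlap in any panel, while under DMSO they overlap in all panels except Hprt, Fam213b and Slc5a8 (349 to 392 CPM against 247 to 348 CPM).

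Enzymes of lipid, steroid and amino acid metabolism fell in both genotypes and by less in the PTKO-labelled libraries. Ces1d, a carboxylesterase, fell from 449, 525 and 412 CPM to 29.5, 20.9 and 17.8 CPM in fl/fl and from 440, 451 and 373 CPM to 54.1, 91.1 and 115 CPM in the PTKO-labelled libraries (interaction 1.98 ± 0.40, SE, adjusted p = 0.0482). Hsd3b3, a hydroxysteroid dehydrogenase of steroid synthesis, fell to 18.5, 15.1 and 13.5 CPM in fl/fl and to 25.1, 46 and 46.9 CPM in the PTKO-labelled libraries (1.59 ± 0.31, SE, adjusted p = 0.045). Both genes have close paralogues, so that kallisto's split of shared reads adds an uncertainty that these values do not show. The mitochondrial aminotransferase Agxt2, the endoplasmic reticulum nucleoside diphosphatase Entpd5 and the arachidonic acid epoxygenase Cyp2c44 had interactions of 1.36, 1.24 and 1.15. Agxt2 went from a mean of 145 ± 4.73 (SD, n = 3) to 19.7 ± 5.05 CPM in fl/fl and from 148 ± 6.22 to 52.5 ± 8.02 CPM in the PTKO-labelled libraries.

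Reep6 (chromosome 10, 80329953 to 80336441), which shapes endoplasmic reticulum membranes, was 1 of the 3 interaction genes that also differed at baseline. Its DMSO levels were 101, 90.7 and 102 CPM in fl/fl, against 64.4, 71 and 53.4 CPM in the PTKO-labelled libraries, a baseline difference of -0.64 (adjusted p = 0.0343). At 3 weeks the order of the genotypes was the other way round, with 22.5, 23.7 and 22.3 CPM in fl/fl, against 33.2, 41.4 and 40.9 CPM in the PTKO-labelled libraries. Neither pair of groups overlapped. The interaction was 1.36 ± 0.17 (SE, adjusted p = 0.00558).

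Both serpins among the members were higher in the PTKO-labelled libraries after AAI. Serpina6 (chromosome 12, 103646630 to 103657212), which encodes the corticosteroid-binding globulin of plasma, had the largest interaction of all genes tested. It read 0.908, 0 and 0.317 CPM under DMSO and 2.84, 2.67 and 2.71 CPM after AAI in fl/fl. All 3 DMSO PTKO-labelled libraries were at 0, and those after AAI were at 73.9, 65.2 and 37 CPM. Against a floor of 3 reads per library (0.152 CPM), Serpina6 was at least 386-fold higher after AAI in the PTKO-labelled libraries, and the interaction was 4.38 ± 0.45 (SE, adjusted p = 0.000554). Serpina1b (chromosome 12, 103728156 to 103830373), an inhibitor of neutrophil elastase with near-identical neighbours that can share its reads, was at 7.51, 3.76 and 4.54 CPM under DMSO and 1.83, 2.16 and 1.75 CPM after AAI in fl/fl. In the PTKO-labelled libraries it went from 5.54, 8.03 and 1.67 CPM to 12.9, 15.4 and 10.7 CPM. The DMSO groups overlapped and the groups after AAI did not (interaction 2.42 ± 0.47, SE, adjusted p = 0.045). With median-of-ratios scaling the Serpina1b interaction had an adjusted p = 0.0517.

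Signalling and structural genes made up most of the remaining positive members. The secreted ligand Wnt5b fell in fl/fl from 9.14, 8.28 and 8.98 CPM to 3.36, 3.1 and 3.01 CPM, and read 5.25, 6.25 and 4.09 CPM under DMSO and 4.31, 5.81 and 5.14 CPM after AAI in the PTKO-labelled libraries (interaction 1.22 ± 0.21, SE, adjusted p = 0.0338). Its DMSO difference of -0.68 missed the threshold (adjusted p = 0.0832). Ppp4r4, a regulatory subunit of a serine/threonine phosphatase, was called with AAI in the PTKO-labelled libraries alone. In fl/fl it was at 6.66, 5.33 and 5.5 CPM under DMSO and 5.38, 7.32 and 4.62 CPM after AAI, and went from 3.75, 4.91 and 3.93 CPM to 13.5, 12.1 and 10.5 CPM in the PTKO-labelled libraries (1.35 ± 0.22, SE, adjusted p = 0.0277). In fl/fl Ppp4r4 was called lower after AAI with median-of-ratios scaling (-0.43, adjusted p = 0.0208) and with quantile normalization (-0.96, adjusted p = 7.43e-05), which puts it among the opposite responses on those scales. Dlec1, the growth factor receptor gene Fgfr3 and the envoplakin gene Evpl were called in fl/fl alone, with interactions of 0.98, 0.89 and 0.91. Ngef, the oxysterol-binding protein gene Osbpl6 and Neurl4 fell in both genotypes, with interactions of 1.21, 0.92 and 0.54. The class of these genes depended on the scale, since with median-of-ratios scaling Wnt5b, Dlec1, Fgfr3 and Evpl also fell in the PTKO-labelled libraries (adjusted p of 0.0285, 0.000942, 0.000499 and 0.00355), as did Slc2a5 (-0.80, adjusted p = 0.00168). On that scale 7 of the 41 interactions missed the threshold, with an adjusted p of 0.0585 for Fgfr3, Osbpl6, Entpd5, Ces1d and Hsd3b3, 0.056 for Mmp7 and 0.0517 for Serpina1b.

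The other positive members were a non-coding gene, an antisense gene and an interferon-induced gene. BC024386, annotated as a processed transcript, fell from 96, 102 and 108 CPM to 3.81, 5.16 and 2.79 CPM in fl/fl and from 93.7, 87 and 81.6 CPM to 14.5, 12.5 and 13.6 CPM in the PTKO-labelled libraries (interaction 1.80, adjusted p = 0.0146). The antisense gene 0610040F04Rik had an interaction of 1.76. Under DMSO it was at 8.3, 6.9 and 9.9 CPM in fl/fl, against 5.3, 5.2 and 3.6 CPM in the PTKO-labelled libraries, without overlap. That difference of -0.71 was not called (adjusted p = 0.274) and is part of the interaction. After AAI it was at 2.1, 3.1 and 3.0 CPM against 5.9, 7.3 and 6.6 CPM. Since the strand setting of the counting is not given in the sources used here, its reads cannot be told apart from those of its partner. I830012O16Rik, which RefSeq names Ifit3b, rose in both genotypes and by more in the PTKO-labelled libraries, to 19.6, 26.7 and 19.2 CPM in fl/fl, against 53, 60.4 and 40 CPM in the PTKO-labelled libraries, from 2.45 to 3.01 CPM under DMSO (interaction 1.27, adjusted p = 0.045). It has close paralogues, and the list of 20 interferon-stimulated genes as a whole had a median interaction of -0.04, a sign that changed in 6 of the alternative fits.

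Several genes of myeloid cells had negative interactions. They rose with AAI in both genotypes and by less in the PTKO-labelled libraries. Fcgr2b (chromosome 1, 170958617 to 170976547), the inhibitory Fc receptor of B cells and myeloid cells, was at 56.3, 55.3 and 54.2 CPM in fl/fl, against 59.8, 54.9 and 55.9 CPM in the PTKO-labelled libraries under DMSO. After AAI it was at 233, 241 and 275 CPM in fl/fl, against 119, 69.9 and 89.5 CPM in the PTKO-labelled libraries. The DMSO levels overlapped and the levels after AAI were separate, with fl/fl the higher. Fcgr2b rose by 2.15 in fl/fl and by 0.66 in the PTKO-labelled libraries, an interaction of -1.49 ± 0.22 (SE, adjusted p = 0.0124). With median-of-ratios scaling the change in the PTKO-labelled libraries was 0.22 (adjusted p = 0.203).

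Cd163 (chromosome 6, 124304656 to 124330527), the macrophage scavenger receptor for haemoglobin bound to haptoglobin, went from 0.424, 0.152 and 0.423 CPM to 14.6, 15.3 and 9.6 CPM in fl/fl. In the PTKO-labelled libraries it went from 0.599, 0.0481 and 0.485 CPM to 2.42, 2.06 and 4.58 CPM. The interaction was -1.88 ± 0.36 (SE, adjusted p = 0.045), and the highest library labelled PTKO stayed below the lowest fl/fl library after AAI. Cd300lf, an inhibitory receptor of myeloid cells, reached 10.4, 10 and 13.8 CPM in fl/fl, against 4.79, 1.54 and 1.9 CPM in the PTKO-labelled libraries from at most 0.25 CPM under DMSO (-1.93 ± 0.34, SE, adjusted p = 0.045). On recovered reads edgeR did not call either gene (adjusted p of 0.167 and 0.115), and DESeq2 called both. Bcl2a1d, an anti-apoptotic gene of the Bcl2 family with near-identical neighbours, was at 0 in all fl/fl DMSO libraries and at least 13.4-fold higher there after AAI, at 2.46, 2.02 and 2.14 CPM against 0.713, 0.698 and 0.689 CPM in the PTKO-labelled libraries. B430306N03Rik, which has no role given here, had an interaction of -1.77. edgeR called neither Bcl2a1d nor B430306N03Rik (adjusted p of 0.382 and 0.143), DESeq2 gave no adjusted p for Bcl2a1d and 0.08 for B430306N03Rik.

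Beside these genes stand the macrophage markers as a whole. Summed over 22 markers, macrophage transcripts ran from 9451 to 16940 CPM in fl/fl and from 3336 to 6878 CPM in the PTKO-labelled libraries after AAI, against 378 to 443 CPM and 347 to 419 CPM under DMSO. All 22 markers rose in both genotypes and all 22 had a negative interaction (median -1.34, against 46.8% positive and a median of -0.02 over all genes tested). limma called 1 of the 22, Cd163. At an unadjusted p under 0.05 the number was 19, edgeR called 0 and DESeq2 called 11. In bulk RNA, fewer cells of a type and less RNA per cell cannot be told apart, and the part of macrophage number in the 4 genes above was not tested.

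The secreted proteins Mmp7 and Lbp and the enzyme gene Gda also rose less in the PTKO-labelled libraries. Mmp7 (chromosome 9, 7692090 to 7699585), the epithelial protease matrilysin, went from 0, 0 and 0.106 CPM to 8.7, 9.99 and 7.68 CPM in fl/fl, and from 0, 0.0481 and 0 CPM to 2.69, 2.02 and 1.54 CPM in the PTKO-labelled libraries (interaction -1.65 ± 0.33, SE, adjusted p = 0.0482). Its DMSO levels are within 2 reads of 0, and on recovered reads neither edgeR (adjusted p = 0.872) nor DESeq2 (0.782) called it, so its call belongs to the log2(CPM + 1) scale. Lbp, the lipopolysaccharide-binding protein, rose to 57.4, 77.8 and 80.4 CPM in fl/fl and to 37.3, 28.3 and 30.5 CPM in the PTKO-labelled libraries from 3.22 to 5.72 CPM under DMSO (-1.21 ± 0.24, SE, adjusted p = 0.0482). Gda (chromosome 19, 21391307 to 21473445), the guanine deaminase of purine breakdown, rose from 16, 18.5 and 10.9 CPM to 192, 167 and 158 CPM in fl/fl. In the PTKO-labelled libraries Gda rose from 15.6, 15.5 and 16.8 CPM to 73.2, 48.8 and 70.3 CPM. The genotypes overlapped under DMSO and were apart after AAI (-1.53 ± 0.30, SE, adjusted p = 0.045).

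The other negative members have varied roles. Arpc3, a subunit of the complex that branches actin filaments, had an interaction of -0.56, and the actin-binding gene Cotl1 one of -0.996. Cotl1 reached 440, 485 and 598 CPM in fl/fl, against 371, 279 and 306 CPM in the PTKO-labelled libraries, from 150 to 216 CPM under DMSO. Kif19a, a kinesin of motile cilia, went from at most 0.25 CPM to 6.31, 5.3 and 9.42 CPM in fl/fl, against 2.85, 1.62 and 1.86 CPM in the PTKO-labelled libraries (-1.40, adjusted p = 0.045), and neither edgeR nor DESeq2 called it (adjusted p of 0.115 and 0.0927). The epithelial membrane protein gene Emp1, the ribosomal stalk gene Rplp2 and the transcription factor gene Usf2 rose in both genotypes, with interactions of -1.04, -0.78 and -0.54. With median-of-ratios scaling the change in the PTKO-labelled libraries was 0.02 for Usf2 (adjusted p = 0.831), 0.22 for Rplp2 (adjusted p = 0.0541) and 0.22 for Cotl1 (adjusted p = 0.112), none of them called. Creg1, a lysosomal glycoprotein gene, rose in fl/fl alone, from 99.9, 105 and 91.4 CPM to 178, 192 and 205 CPM, against 98.1, 107 and 108 CPM and then 134, 110 and 115 CPM in the PTKO-labelled libraries (-0.76 ± 0.14, SE, adjusted p = 0.045). With median-of-ratios scaling the Creg1 change in the PTKO-labelled libraries turned to -0.26 (adjusted p = 0.0209).

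Hprt and Fam213b differed at baseline and responded in opposite directions. Hprt (chromosome X, 52988137 to 53021659), the purine salvage enzyme often used as a reference gene, was at 71, 68.4 and 74.2 CPM in fl/fl, against 27.4, 26.6 and 15.7 CPM in the PTKO-labelled libraries under DMSO. After AAI it was at 114, 109 and 87.1 CPM in fl/fl, against 10.3, 13.2 and 10.1 CPM in the PTKO-labelled libraries. Each library labelled PTKO was below every fl/fl library under both treatments. The genotype difference was -1.61 under DMSO (adjusted p = 0.000179) and -3.10 after AAI, an interaction of -1.48 ± 0.24 (SE, adjusted p = 0.0277). The rise of 0.52 in fl/fl is close to the median of all genes, and with median-of-ratios scaling it was 0.06 (adjusted p = 0.773), while the change in the PTKO-labelled libraries was -0.96 and became -1.39.

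Fam213b (chromosome 4, 154895504 to 154899135), named Prxl2b in RefSeq, encodes a thioredoxin-like prostaglandin F synthase. It was at 7.27, 5.69 and 6.92 CPM in fl/fl, against 37.7, 36.7 and 68.6 CPM in the PTKO-labelled libraries under DMSO. With AAI it read 11.9, 13.7 and 13.1 CPM in fl/fl, against 19.8, 24.8 and 22 CPM in the PTKO-labelled libraries. All PTKO-labelled libraries were higher under both treatments, and the gap narrowed from 2.62 on the log2 scale to 0.74. The interaction was -1.88 ± 0.27 (SE, adjusted p = 0.0109). The rise of 0.87 in fl/fl had an adjusted p = 0.0539 with median-of-ratios scaling, so the opposite directions of Hprt and Fam213b are called on the CPM scale and not on that one.

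The scale moved the classes of genes more than the interaction. AAI raised the median of all genes by 0.45 in fl/fl and 0.41 in the PTKO-labelled libraries on CPM, by 0.03 and 0.01 with median-of-ratios scaling, and the medians were -0.09 and -0.09 with quantile normalization. Relative to the CPM median of all genes, the fl/fl and labelled PTKO responses were -2.62 and -0.76 for Slc2a5, -1.98 and -0.48 for Nqo1, -1.12 and 0.36 for Mme, 1.71 and 0.25 for Fcgr2b, 0.08 and -1.38 for Hprt, and 0.42 and -1.43 for Fam213b. The median interaction was -0.01 and 0.00 with the other scalings. No member changed the sign of its interaction, which the choice of the members makes likely. With median-of-ratios scaling 47 genes were called, 34 of them among the 41, and 2 of the 47 had opposite directions.

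Most interaction genes had no call before the toxin. Of the 41, 38 were not called between genotypes under DMSO, where 42 of all genes tested (0.288%) were called, 28 of them higher (0.192%) and 14 lower (0.0959%) in the PTKO-labelled libraries. The genotypes' DMSO libraries did not overlap in 14 of the 41, against 2407 of 14604 genes tested. This share, and that of the 3 members called under DMSO, were larger than among all genes tested. The DMSO difference is also a term of the interaction, so nothing is read from these shares. After AAI the genotypes did not overlap in 41 of 41, against 4928 of 14604 genes tested, and all 41 were called in the genotype difference at 3 weeks, against 14.2% of all. That difference is a term of the interaction, so nothing is read from this count. Conversely, 2036 genes were called between the genotypes at 3 weeks and not in the interaction.

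The genotype difference at 6 weeks is measured in libraries whose levels are not part of the interaction. Those libraries did help to choose the interaction genes, through the shared estimate of spread. A gene with a small spread is favoured in both calls. The numbers called at 6 weeks are thus not independent of that choice, which was not applied to all genes tested. Of the 24 genes with a positive interaction, 23 had a higher level in the PTKO-labelled libraries at 6 weeks and 11 were called higher, against 4865 and 477 (3.27%) of all 14604 genes tested. Of the 17 with a negative interaction, 16 had a lower level and 9 were called lower, against 9739 and 1721 (11.8%) of all. The exceptions in sign were Evpl (-0.06) and Fam213b, which was called higher (1.98). Serpina6 was at 0.748, 0.682 and 2.01 CPM in fl/fl, against 10.7, 5.63 and 14.1 CPM in the PTKO-labelled libraries, with no overlap (2.35, adjusted p = 0.000605). Mmp7 was at 17.8, 15.3 and 10.8 CPM against 1.45, 3.52 and 1.23 CPM (-2.40, adjusted p = 3.6e-05). Slc5a8, by contrast, was at 128, 275 and 93.6 CPM in fl/fl, against 205, 160 and 115 CPM in the PTKO-labelled libraries at 6 weeks, which overlapped (0.07, adjusted p = 0.931). Mme (0.05, adjusted p = 0.89), Ppp4r4 (0.09, adjusted p = 0.726) and BC024386 (0.04, adjusted p = 0.914) also had no call. The 6-week response shares its DMSO libraries with the 3-week one, and limma called 10 genes (0.0685%) in its own interaction. Among them were Serpina6 (2.79), Reep6 (1.10), Wnt5b (1.51) and Mmp7 (-2.37).

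**Figure D3:**
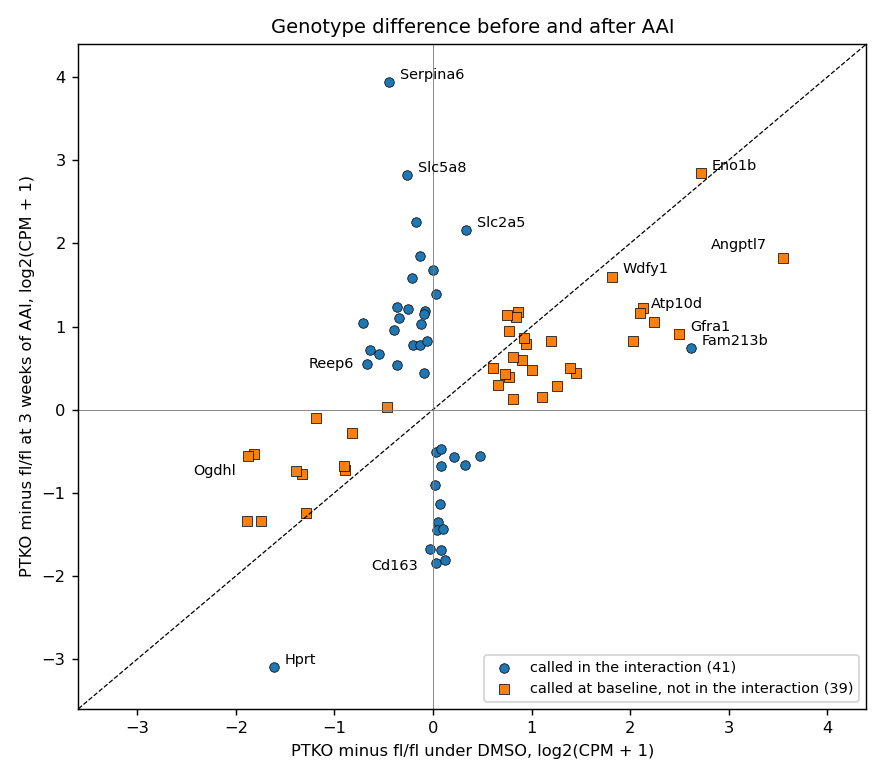
Genotype difference (labelled PTKO minus fl/fl) under DMSO (horizontal axis) and after 3 weeks of AAI (vertical axis), on the log2(CPM + 1) scale, for the 41 interaction genes (circles) and the 39 genes called under DMSO and not in the interaction (squares), with an equal difference on the dashed line. Among the circles, Fam213b (2.62) and Hprt (-1.61) stand farthest from the vertical axis. 0610040F04Rik (-0.71), Wnt5b (-0.68) and Reep6 (-0.64) come next, and the other circles lie nearer to that axis. The squares lie in the quadrants where both differences have the same sign, except 1.

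The 39 genes called under DMSO and not in the interaction were 27 higher and 12 lower in the PTKO-labelled libraries. A missing interaction call does not show equal responses. In some of these genes the 95% interval of the interaction was wholly negative, as in Angptl7 (-1.72, interval -2.94 to -0.51, adjusted p = 0.131). Scfd2 was another (-0.68, interval -0.99 to -0.38, adjusted p = 0.0517). Eno1b, an enolase gene copy whose reads can be shared with Eno1, was at 0, 0.102 and 0 CPM in fl/fl, against 5.29, 4.28 and 8.51 CPM in the PTKO-labelled libraries under DMSO. It was at 0.0746, 0.141 and 0.174 CPM and at 5.98, 7.31 and 8.14 CPM after AAI. The difference was 2.72 before and 2.84 after the toxin, and the interaction was 0.12 (95% interval -0.43 to 0.67). Wdfy1, which encodes an endosomal adaptor, was at 19.6, 20 and 21.6 CPM in fl/fl, against 72.2, 57 and 99.3 CPM in the PTKO-labelled libraries under DMSO, and at 18.5, 15.5 and 14.7 CPM and 49.4, 50.7 and 53.5 CPM after AAI (interaction -0.21, 95% interval -0.66 to 0.23). These 2 genes were apart by about the same amount with and without AAI.

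The other baseline genes of the naming rule also had no interaction call. Arntl2, a clock transcription factor gene, was at 0.727, 0.559 and 0.528 CPM in fl/fl, against 4.54, 3.85 and 9.37 CPM in the PTKO-labelled libraries under DMSO, then at 3.43, 3.1 and 3.49 CPM and 7.48, 5.95 and 6.6 CPM after AAI (interaction -1.21, 95% interval -1.86 to -0.55, adjusted p = 0.0745). Atp10d, a lipid flippase gene that is annotated as a polymorphic pseudogene, had differences of 2.10 and 1.16 (interaction -0.95, adjusted p = 0.0889). Among the genes lower at baseline, Ogdhl, an oxoglutarate dehydrogenase-like gene, had differences of -1.88 and -0.56, Ttc39b of -0.82 and -0.28, the insulin-responsive Rab regulator Tbc1d4 of -0.90 and -0.68, and the ubiquitin hydrolase Uchl1 of -1.29 and -1.25. In 34 of the 39 genes the interaction was opposite in sign to the baseline difference, which follows in part from the choice of genes, since both use the same DMSO libraries. In PTKO DMSO replicate 3, Arntl2, Atp10d, Wdfy1 and Eno1b were highest of their group, and without that library 26 genes were called at baseline only, against 39. Without fl/fl DMSO replicate 1 or 2 the number was 25 each.

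The genotypes were also compared in the AAI libraries, whose levels are not part of the DMSO difference. The 3-week libraries did help to choose the 39 genes, since genes with an interaction call were left out. The 3-week counts follow in part from that choice, which was not applied to all genes tested. The 6-week libraries entered the choice only through the shared estimate of spread. The genotype difference at 3 weeks had the same sign in 38 of the 39 genes and was called in the same direction in 25, against 14.2% of all genes tested called in either direction. The exception in sign was Ptprg, a receptor tyrosine phosphatase gene (-0.46 under DMSO and 0.03 after AAI). At 6 weeks 35 of the 39 were called in the same direction, against 15.1% of all called in either direction. AAI changed 16 of the 39 in both genotypes. Nnt, the mitochondrial transhydrogenase known for a deletion that separates C57BL/6J from other C57BL/6 substrains, was among the 27 higher genes and is named after its values were seen. It was at 193, 173 and 178 CPM in fl/fl, against 295, 295 and 394 CPM in the PTKO-labelled libraries under DMSO, and at 81.1, 76.2 and 63.5 CPM and 147, 168 and 164 CPM after AAI. The genotypes did not overlap under either treatment, and Nnt was well above 0 in all 12 libraries. Without values per exon these levels cannot show whether the deletion is present, and a substrain difference was not tested. Of the 39 genes, 7 were placed on chromosome 14, 7 on chromosome 5 and 5 on chromosome 4, which hold 3.26%, 6.05% and 6.03% of genes tested. The 41 interaction genes had at most 4 placed on any chromosome. Nnt, Gm1045, Gm13157 and 1700112E06Rik of the 39, and Cyp2c44 and I830012O16Rik of the 41, had no chromosome assigned, so these counts may be too low. On chromosome 12, which holds 4 of the 41 and 3.25% of genes tested, Ppp4r4, Serpina6 and Serpina1b lie close together between 103532283 and 103830373, and all 3 had a positive interaction.

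Gene lists placed the 41 genes in their pathways. Proximal tubule markers had mostly positive interactions, and none was called. Of 22 S1 and S2 markers the interaction was positive in 21 (median 0.73), with a median AAI response of -1.77 in fl/fl and -1.03 in the PTKO-labelled libraries. Of 16 S3 markers it was positive in 16 (median 1.81, responses of -2.89 and -1.23). limma called 0 in either list, 11 in each list had an unadjusted p under 0.05, edgeR called 0 and 0, and DESeq2 called 1 and 4. The phosphate transporter Slc34a1 was at 2277, 1435 and 1376 CPM in fl/fl, against 2469, 3188 and 3329 CPM in the PTKO-labelled libraries after AAI, from 7839 to 9536 CPM under DMSO (interaction 0.77, adjusted p = 0.245). Summed S1 and S2 markers ran from 6136 to 10530 CPM in fl/fl and from 10750 to 14720 CPM in the PTKO-labelled libraries after AAI, and from 27740 to 29730 CPM and 28390 to 33010 CPM under DMSO. The part of this shift in the transporter and enzyme genes above was not tested.

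Metabolic lists also had mostly positive interactions. Of 28 branched-chain amino acid catabolism genes, 28 had a positive interaction (median 0.57), but the study follows this pathway in part because of these libraries, and its direction here is not independent evidence. Fatty acid oxidation was positive in 25 of 27 (0.45), respiratory chain subunits in 23 of 26 (0.24), gluconeogenesis and fructose use in 12 of 12 (0.79) and cytochrome P450 genes in 16 of 19 (1.005). limma called none of the listed genes in the interaction, and the cytochrome P450 list does not hold Cyp2c44, which limma and edgeR called. At an unadjusted p under 0.05 there were 17, 15, 6, 9 and 7 genes, edgeR called 0 in each list, and DESeq2 called 6, 1, 0, 1 and 3. Aldh6a1, of valine breakdown, was at 296, 239 and 165 CPM in fl/fl, against 373, 516 and 525 CPM in the PTKO-labelled libraries after AAI (interaction 1.04, adjusted p = 0.0889). Bckdhb, a subunit of the branched-chain dehydrogenase, had an interaction of 0.14 (adjusted p = 0.871).

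Markers of other nephron segments leaned the same way without a limma call. The interaction was positive in 10 of 10 thick ascending limb markers (median 0.64), 10 of 11 distal convoluted and connecting tubule markers (0.47), 13 of 14 intercalated cell markers (0.49) and 10 of 11 principal cell markers (0.23). limma and edgeR called 0 in these lists and DESeq2 called 1, an intercalated cell marker, while 3, 6, 3 and 2 had an unadjusted p under 0.05. Slc4a1, the anion exchanger of intercalated cells and red cells, was at 13.3, 24.1 and 15.1 CPM in fl/fl, against 52.8, 48.1 and 46.1 CPM in the PTKO-labelled libraries after AAI, from 47.3 to 57.6 CPM under DMSO (interaction 1.37, adjusted p = 0.0614).

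**Figure D4:**
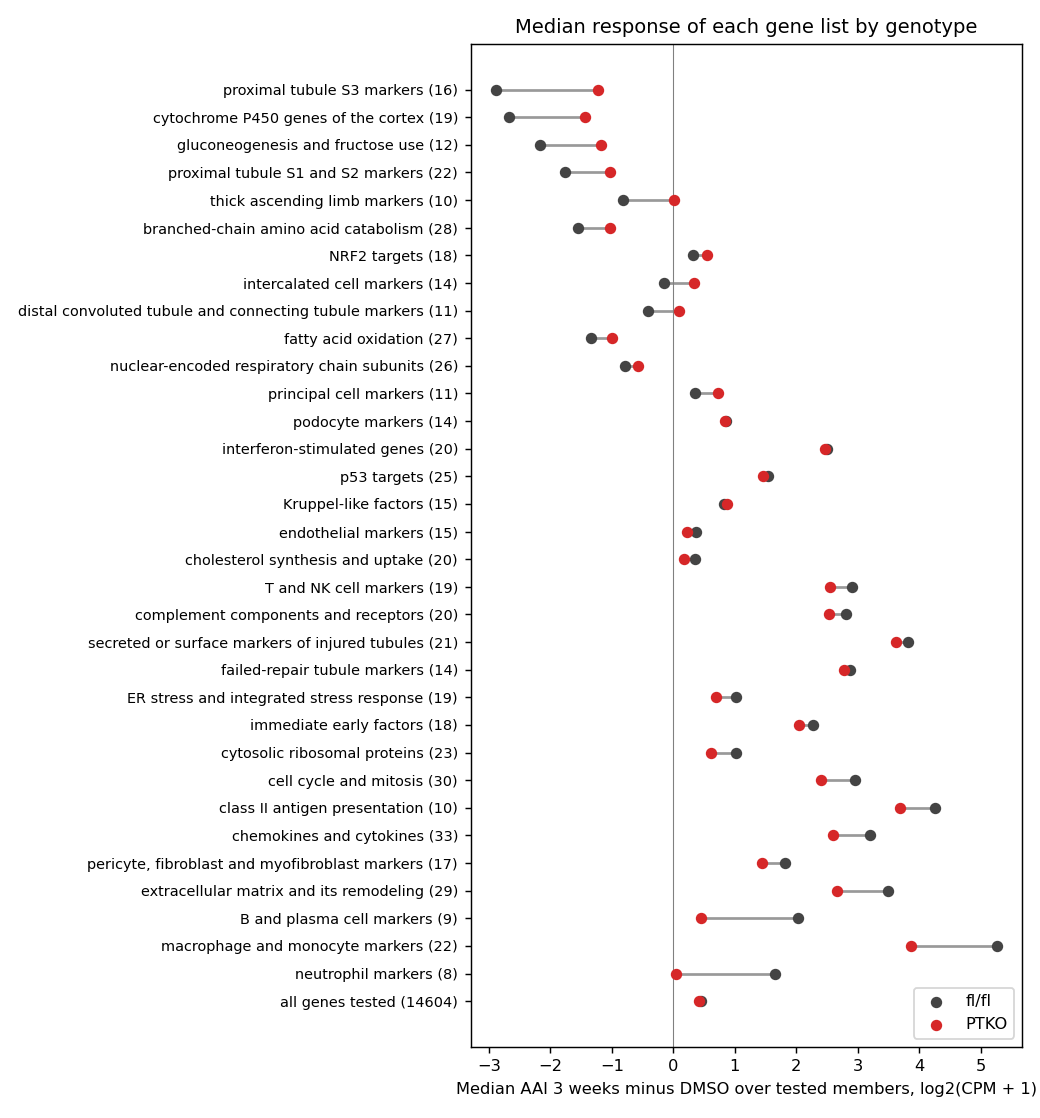
Median log2 response to AAI over the tested members of each list (number in brackets) in fl/fl (grey) and in PTKO-labelled libraries (red), with all genes tested at the bottom, on the log2(CPM + 1) scale. The red point lies nearer to 0 than the grey one for the S1 and S2 list (-1.03 against -1.77), the S3 list (-1.23 against -2.89) and the macrophage list (3.87 against 5.27), while all genes tested lie at 0.41 and 0.45.

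Inflammatory and fibrotic lists had mostly negative interactions. The interaction was negative in 8 of 8 neutrophil markers (median -1.47), 8 of 9 B and plasma cell markers (-1.16), 28 of 29 matrix genes (-0.82), 17 of 17 fibroblast and pericyte markers (-0.79) and 25 of 33 chemokines and cytokines (-0.70). limma and edgeR called none of these in the interaction, DESeq2 called 2, 3, 3, 2 and 3, and 6, 6, 11, 7 and 10 had an unadjusted p under 0.05 in that direction. Vim, the intermediate filament vimentin, reached 759, 806 and 1122 CPM in fl/fl, against 522, 330 and 403 CPM in the PTKO-labelled libraries from 26.2 to 32.1 CPM under DMSO (interaction -1.01, adjusted p = 0.145). Summed matrix transcripts ran from 13250 to 16290 CPM in fl/fl and from 7908 to 9506 CPM in the PTKO-labelled libraries after AAI. Cytosolic ribosomal proteins were negative in 22 of 23 (-0.39) and cell cycle genes in 29 of 30 (-0.49), with 13 and 0 at an unadjusted p under 0.05, none of the listed genes called by limma or edgeR, and 4 and 0 called by DESeq2. The ribosomal list does not hold Rplp2, which limma called.

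All 21 tubular injury markers rose in both genotypes, and none was called in the interaction. Of these 21 injury genes, 15 had a negative interaction (median -0.20), 4 of them at an unadjusted p under 0.05. limma and edgeR called none and DESeq2 called 1. Havcr1, the injury marker KIM-1, was at 545, 443 and 455 CPM in fl/fl, against 582, 841 and 547 CPM in the PTKO-labelled libraries after AAI, from 0.754 to 2.17 CPM under DMSO (interaction 0.74, 95% interval -0.26 to 1.74, adjusted p = 0.418). Lcn2, which encodes the iron-siderophore carrier NGAL, was at 679, 900 and 767 CPM in fl/fl, against 342, 351 and 285 CPM in the PTKO-labelled libraries, with no overlap (interaction -1.43, 95% interval -2.43 to -0.44, adjusted p = 0.123). The 25 p53 targets had a median interaction of -0.06, a sign that changed without PTKO DMSO replicate 3.

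**Figure D5:**
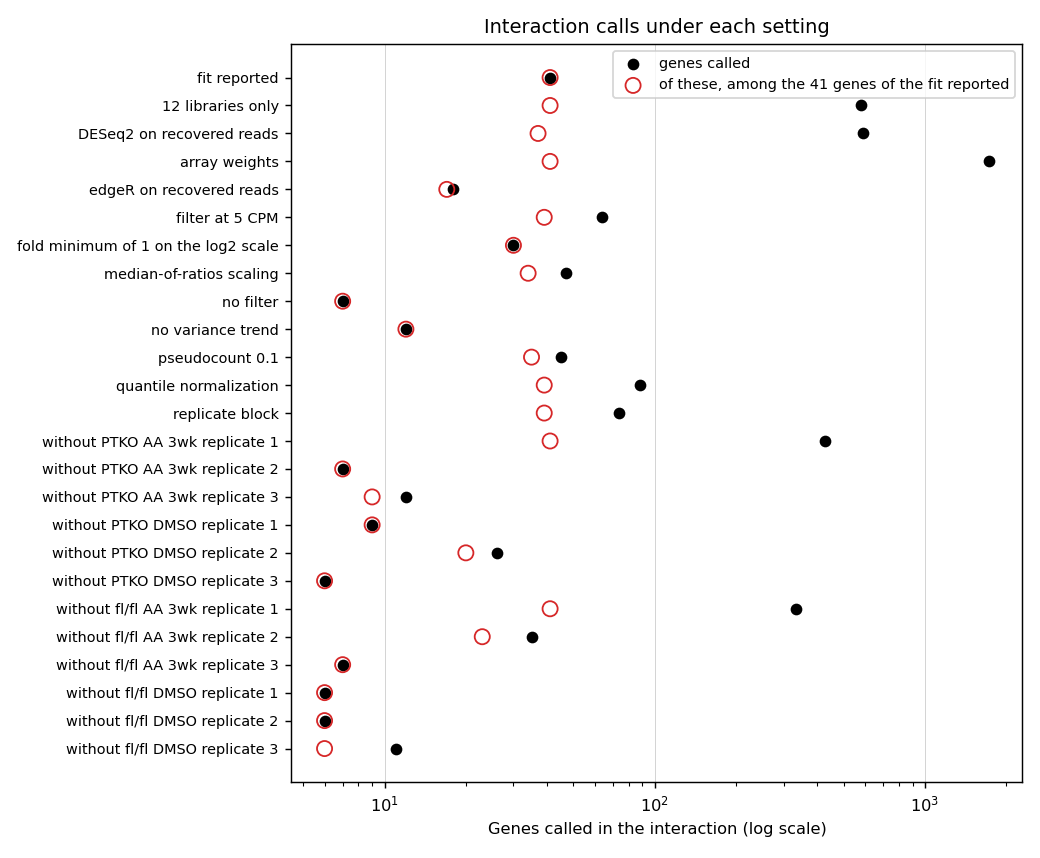
Number of genes called in the interaction under each setting (filled points, log axis) and how many of them are among the 41 reported (open circles). The count runs from 6 without 1 library to 1729 with library weights, and the fits with the most calls contain all or nearly all of the 41.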

How the data were processed

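Kidney cortex total RNA was sequenced by the submitters in 18 libraries (6 groups of 3), of which 12 enter the contrast described. The authors deposited CPM values, with each library's column summing to 1000000 over 24062 gene symbols. The submitters' processing notes name bcl2fastq 2.19, kallisto and mm10. The labels' protocols name a stranded total RNA kit, and the strand setting of the counting is not given in the sources used here. All 433116 values tested for it were whole reads to within 0.01 read, so read counts and library totals could be recovered from the deposited CPM. Of the symbols, 27 had been turned into dates and 22683 matched 1 GENCODE gene.

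From the CPM values, log2(CPM + 1) was tested with limma 3.58.1 (R 4.3.3) with 6 group means, 12 residual degrees of freedom, a variance trend and Benjamini-Hochberg adjustment over all 14604 genes with at least 1 CPM in 3 libraries. Genes with an adjusted p under 0.05 were called, and intervals are 95%. Fold changes on this scale understate the change of low genes. Named genes were Klf6, the largest called interactions in each direction with at least 5 CPM in a group, the called genes of each class and at baseline with the smallest adjusted p, and the lists' leading genes, and other called genes are named to account for the 41. The leading gene of 1 list is not reported here. The members and gene lists were chosen with earlier results of these data known. Alternatives were edgeR 4.0.16 and DESeq2 1.42.0 on the recovered reads, median-of-ratios scaling, quantile normalization, a pseudocount of 0.1, a filter at 5 CPM or none, no variance trend, library weights, a minimum fold, the 12 libraries alone, a replicate block, and each library left out. The steps were tested on simulated data. The floor of 3 reads covers counting error only.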

Additional observations from a re-analysis of the deposited data

Results flagged for a closer look

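For 22 named genes the AAI response differed between fl/fl and PTKO-labelled libraries by the interaction test itself (limma, 3 libraries per group), which is why they are listed here with their interaction on the log2(CPM + 1) scale. Among the transport, enzyme and serpin genes the interaction was 4.38 for Serpina6, 3.08 for Slc5a8, 2.42 for Serpina1b, 1.98 for Ces1d, 1.82 for Slc2a5, 1.68 for Xpnpep2, 1.59 for Hsd3b3, 1.46 for Nqo1 and 1.45 for Mme. It was 1.36 for Reep6, 1.35 for Ppp4r4, 1.22 for Wnt5b and 0.98 for Dlec1. Among the genes with a negative interaction it was -0.76 for Creg1, -1.4 for Kif19a, -1.48 for Hprt, -1.49 for Fcgr2b, -1.53 for Gda, -1.65 for Mmp7, -1.88 for Cd163, -1.88 for Fam213b and -1.93 for Cd300lf.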

How the results depend on the processing

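The number of interaction calls changed with most settings tried. Positive and negative interactions numbered 24 and 17 as reported. They were 354 and 227 with the 12 libraries alone, 327 and 261 with DESeq2, 773 and 956 with library weights, 11 and 7 with edgeR, 38 and 26 with a 5 CPM filter, 19 and 11 with a minimum change of 1 on the log2 scale, 20 and 27 with median-of-ratios scaling, 4 and 3 with no filter, 7 and 5 with no variance trend, 28 and 17 with a pseudocount of 0.1 and 41 and 47 with quantile normalization. Leaving out 1 library at a time gave 3 to 200 positive and 2 to 227 negative.

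In the same order of settings, genes with a smaller response in the PTKO-labelled libraries or a call in fl/fl alone (34 as reported) numbered 514, 503, 1574, 12, 50, 23, 38, 5, 8, 38 and 73. Those with a larger response or a call in the PTKO-labelled libraries alone (3) numbered 42, 68, 117, 4, 7, 3, 7, 1, 2, 3 and 10, and those with opposite directions (4) 25, 17, 38, 2, 7, 4, 2, 1, 2, 4 and 5. Leaving out 1 library gave 3 to 386, 1 to 29 and 1 to 14. The cause of these shifts was not tested.

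With a minimum change of 1, AAI changed 4904 genes in fl/fl and 3888 in the PTKO-labelled libraries, the genotypes differed in 24 genes under DMSO (22 at baseline only) and in 470 at 3 weeks. With library weights these numbers for the genotypes were 180 (130) and 3454, and with DESeq2 113 (83) under DMSO. Leaving out 1 library gave 26 to 53 under DMSO, 25 to 48 at baseline only and 360 to 2517 at 3 weeks.

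Whether the replicate numbers pair the samples is not known. Same-numbered deviations from the group means correlated between -0.372 and 0.2, and differently numbered ones between -0.406 and 0.465. With 3 libraries per group these values cannot decide it. With the replicate block, 53 positive and 21 negative interactions were called, of which 65 had a smaller response or a call in fl/fl alone, 4 a larger one and 5 opposite directions. In the block fit 36 genes differed under DMSO (33 at baseline only) and 1816 at 3 weeks.

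Of 55 named interactions, the 22 called reversed in no alternative, which their choice by the interaction test makes likely. Signs turned for genes with no call. With library weights Bckdhb became -0.156, Mmp9 0.031 and Xbp1 0.078, and Spp1 became -0.001 with quantile normalization. Leaving out 1 library at a time, the range was -0.069 to 0.276 for Bckdhb, -0.533 to 0.034 for Mmp9 and -0.24 to 0.095 for Xbp1. Genes under a few reads per library, such as Mmp7 under DMSO, are limited by depth.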

Other observations

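None of the lists below held a limma interaction call other than Mme. The 10 MHC class II and antigen presentation genes rose in both genotypes and had a median interaction of -0.56, negative in 8, and the 19 T cell markers one of -0.17, negative in 14, which turned to 0.12 without PTKO 3-week replicate 2. For 20 complement genes the median interaction was -0.17 and for 20 cholesterol synthesis genes -0.17. Endoplasmic reticulum stress genes had a negative interaction in 18 of 19 (median -0.22), and AP-1 and EGR genes in 14 of 18 (-0.22). The 15 Krüppel-like factor genes tested, Klf6 among them, had a median of -0.08, 15 endothelial markers -0.11 and 14 failed repair genes -0.22. limma called 0 genes of these lists in the interaction and edgeR called 0. At an unadjusted p under 0.05, the MHC class II list held 0 genes, the T cell list 1, complement 4, cholesterol synthesis 3, endoplasmic reticulum stress 3, AP-1 and EGR 0, Krüppel-like 3, endothelial 1 and failed repair 3. DESeq2 called 2 complement genes and 1 gene each among the cholesterol synthesis, Krüppel-like and endothelial lists. The 14 podocyte markers had a median of -0.02, with Mme as the 1 called. Other medians also changed sign, that of AP-1 and EGR genes with DESeq2 (0.028) and edgeR (0.057), complement without fl/fl DMSO replicate 3 (0.015), Krüppel-like factors without fl/fl 3-week replicate 1 (0.052) and podocyte markers in 4 fits, edgeR among them (0.006).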
